A study of Mus musculus with 58 samples.

Results

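The genes described here are 9 genes of muscle calcium handling: Sln, Pln, Atp2a1, Atp2a2, Ryr1, Casq1, Casq2, Pvalb and Cacna1s. They were chosen by symbol, as probe sets whose symbol in the platform annotation is on that list. All 9 were measured, with 1 probe set each, among 23185 named genes. RNA was taken from a shin muscle, the tibialis anterior, and from the breathing muscle, the diaphragm. The animals were adult female NSG mice, whose lack of a working immune system lets human grafts grow. The mice with tumours carried pancreatic ductal adenocarcinoma (PDAC) tissue from cachectic patients, attached to the pancreas as a patient-derived xenograft (PDX). They were killed at severe cachexia, a wasting of muscle and fat, or when the tumour had reached a size limit. Sham mice had surgery without a tumour. Tumours of 4 patients gave 4 cohorts, each with its own sham mice, so the tumour and the cohort cannot be told apart. Each muscle had 17 PDX and 12 sham arrays, with 3, 5, 5 and 4 PDX arrays and 3 sham arrays in each of cohorts 1 to 4. The labels do not state that every array came from a separate animal, so the spread behind each p-value may be partly technical.

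In skeletal muscle an electrical signal in the transverse tubules is sensed by the voltage-gated channel whose pore subunit is Cacna1s, which opens Ryr1, the calcium release channel of the sarcoplasmic reticulum. Inside that store calcium is bound by calsequestrin (Casq1, the main form of fast fibres, and Casq2, the form of slow fibres and heart). Relaxation follows when parvalbumin (Pvalb), a soluble buffer of fast fibres, binds calcium in the cytosol and the pumps Atp2a1 (fast fibres) and Atp2a2 (slow fibres and heart) return it to the store. The small membrane proteins sarcolipin (Sln) and phospholamban (Pln) inhibit the pumps.

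Of the 9 genes, 7 had promoter windows of 250 bases before a transcription start in RefSeq's table (GRCm38.p6), with 8 windows in all. The windows of Casq2, Casq1 and Pvalb are shown because Casq2 differed widely between the sham muscles, Casq1 fell with PDX in both muscles and Pvalb fell in the diaphragm. Capitals mark matches, on either strand, to CTANNNNTA, the core of sites for MEF2 factors, or to CAGCTG, an E-box of the kind that myogenic factors bind. CTANNNNTA was found in 3 of the 8 windows and in 19.0% of all 32851 windows of that length, and CAGCTG in 3 of the 8 and in 13.0% of all. The Casq2 window is on the plus strand at chr3:102086165-102086414, with a CTANNNNTA match at positions -68 to -60 from the start. The Casq1 window is on the minus strand at chr1:172219896-172220145, with a CAGCTG match at -195 to -190. The Pvalb window is on the minus strand at chr15:78206401-78206650, with a CTANNNNTA match at -179 to -171. A second Pvalb window, for the start at 78204237, had 0 matches to either motif and is not printed.
Casq2: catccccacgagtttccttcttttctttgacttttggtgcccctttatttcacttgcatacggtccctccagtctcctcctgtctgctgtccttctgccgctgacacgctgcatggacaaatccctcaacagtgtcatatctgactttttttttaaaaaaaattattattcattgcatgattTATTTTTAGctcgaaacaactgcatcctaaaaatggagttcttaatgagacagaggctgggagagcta
Casq1: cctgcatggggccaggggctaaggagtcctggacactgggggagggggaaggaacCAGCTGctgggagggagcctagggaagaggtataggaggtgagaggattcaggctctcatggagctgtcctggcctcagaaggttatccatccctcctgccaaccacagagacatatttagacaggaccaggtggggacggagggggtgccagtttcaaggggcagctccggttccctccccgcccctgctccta
Pvalb: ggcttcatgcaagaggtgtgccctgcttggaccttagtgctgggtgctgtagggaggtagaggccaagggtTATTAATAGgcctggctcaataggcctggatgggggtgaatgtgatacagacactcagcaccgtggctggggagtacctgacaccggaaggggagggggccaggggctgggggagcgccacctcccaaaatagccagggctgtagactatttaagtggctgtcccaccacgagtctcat
A match describes the letters of the window and does not show binding.

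Array medians lay between 3.702 and 3.862 on the log2 scale, and the median of all probe sets was 3.78. The mean of 6 skeletal fibre markers was 11.39 and 11.41 in PDX and sham tibialis anterior and 11.27 and 11.31 in PDX and sham diaphragm. Of 5 hindlimb position genes, 3 were lower in sham diaphragm than in sham tibialis anterior (limma, adjusted p under 0.05). The other 2 did not pass, and the median difference was -0.30. The gene farthest apart, Hoxc10, averaged 2.68 and 3.31 in PDX and sham diaphragm, against 7.08 and 7.19 in PDX and sham tibialis anterior. Heart muscle markers were low, with a mean over 10 genes between 3.41 and 3.93 on all 58 arrays. Liver genes stood apart. The mean of 11 measured hepatocyte markers ran from 4.00 to 11.10 in PDX diaphragm and from 3.91 to 10.69 in sham diaphragm, against 3.33 to 6.44 and 3.27 to 5.43 in PDX and sham tibialis anterior. It was above 6 in 9 of 17 PDX and 6 of 12 sham diaphragm arrays, and diaphragm results are given with and without arrays rich in this signal.

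In sham mice the diaphragm held far more Sln, Atp2a2 and Casq2 than the tibialis anterior, and less Pvalb and Casq1. All 9 genes passed the test (limma, Benjamini-Hochberg adjusted p under 0.05 over all named genes), 4 higher and 5 lower in the diaphragm, where 39.7% of all genes passed, 15.2% higher and 24.5% lower. The median difference was -0.25 for the 9 genes, against -0.09 for all genes. Sln had a lowest, median and highest level of 10.27, 10.45 and 10.97 in sham diaphragm, against 3.29, 4.17 and 5.59 in sham tibialis anterior. The ranges were far apart. The difference of 6.23 (SE 0.23, 75.1-fold, adjusted p = 4.80e-27) was the highest of all 23185 genes and lay between 5.69 and 7.003 in the 4 cohorts. The mean of 4.29 in sham tibialis anterior was close to the median of all probe sets, so this fold is read as a lower bound.

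Among the pumps, Atp2a2 was 13.1-fold higher in sham diaphragm, and Atp2a1 was slightly lower there. Atp2a2 had a lowest, median and highest level of 10.01, 10.32 and 10.63 in sham diaphragm, against 6.07, 6.55 and 7.09 in sham tibialis anterior. Its log2 difference of 3.71 (SE 0.09, adjusted p = 8.84e-34) ranked 22 from the top. Atp2a1 averaged 11.80 ± 0.10 in sham diaphragm and 12.05 ± 0.09 in sham tibialis anterior (SD, n = 12 each), a difference of -0.25 (adjusted p = 0.000627). These levels lie close to the highest values of the arrays (at least 11.73 on each array), where a change can be compressed. Pln, the inhibitor best known from heart and slow fibres, was 1.58-fold higher in the diaphragm, with 5.19 ± 0.38 in sham diaphragm and 4.53 ± 0.22 in sham tibialis anterior (SD, n = 12 each, adjusted p = 0.000217). Pln lay between 3.66 and 5.82 on all arrays, not far from the median of all probe sets, so its differences here and below may be understated.

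The calsequestrins went opposite ways between the sham muscles. Casq2 ran from 8.18 to 8.89 in sham diaphragm, against 4.83 to 6.40 in sham tibialis anterior, a difference of 3.05 (SE 0.16, 8.28-fold, adjusted p = 1.72e-20). Casq1 ran from 9.90 to 10.61 in sham diaphragm, against 10.96 to 11.39 in sham tibialis anterior, a difference of -0.84 (SE 0.13, adjusted p = 1.94e-06). Neither gene's ranges overlapped. Pvalb had a lowest, median and highest level of 7.56, 9.33 and 10.23 in sham diaphragm, against 10.99, 11.34 and 11.46 in sham tibialis anterior, and its difference of -1.91 (SE 0.17, 0.266-fold, adjusted p = 4.82e-13) ranked 31 from the bottom. The coupling genes differed less, Ryr1 by -0.42 and Cacna1s by -0.34 (adjusted p = 0.000579 and 0.00457), and the Cacna1s call was lost without cohort 1 (-0.29, adjusted p = 0.0564). Beside these values, all 8 slow fibre markers were higher in sham diaphragm, by a median of 4.17. Of 10 fast fibre markers 6 were lower, 1 was higher and 3 did not pass, with a median of -0.29. Myh4, the myosin of the fastest fibres, differed by -1.98 and Myh2, another fast fibre myosin, by 0.95. In bulk RNA, a different share of fibres of one type and a different amount of RNA per fibre cannot be told apart.

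**Figure D1:**
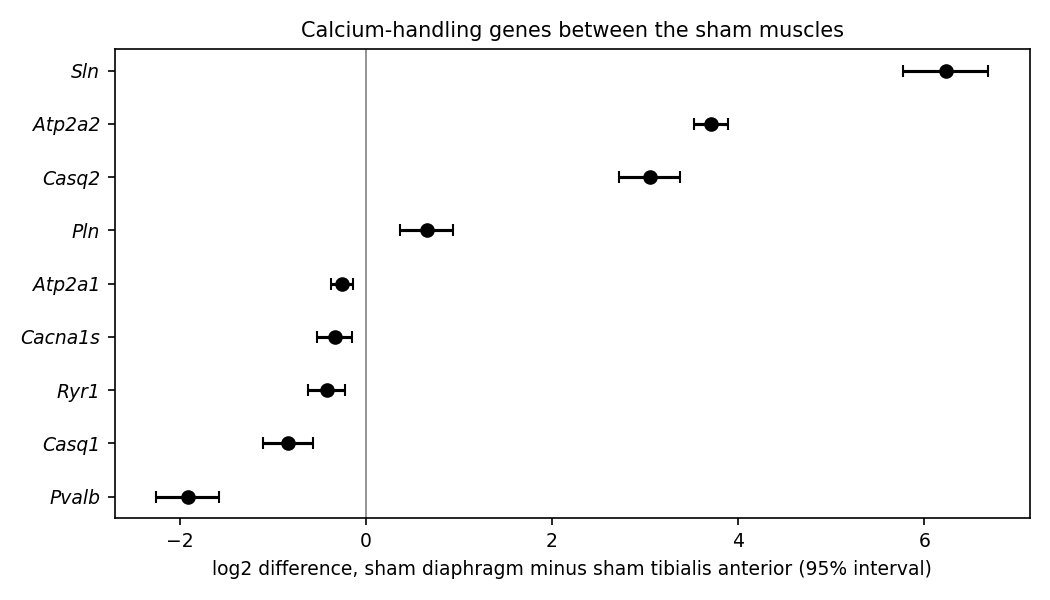
Log2 difference between sham diaphragm and sham tibialis anterior (x axis) for the 9 genes (rows), with points for limma's estimate and bars for its 95% interval. Sln lies farthest to the right at 6.23, Atp2a2 and Casq2 follow at 3.71 and 3.05, and Pvalb lies farthest to the left at -1.91.

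With PDX, Sln rose and Casq1 fell in the tibialis anterior, and Ryr1 rose slightly. These were the 3 of 9 genes that passed, 2 higher and 1 lower, where 12.8% of all genes passed, 6.32% higher and 6.53% lower. The median change was 0.02 for the 9 genes and -0.01 for all genes. Sln had a lowest, median and highest level of 4.27, 5.42 and 7.42 on the 17 PDX arrays, against 3.29, 4.17 and 5.59 on the 12 sham arrays. The groups overlapped, and the PDX arrays were the more spread. The difference, averaged over cohorts with equal weight, was 1.17 (SE 0.26, 2.26-fold, adjusted p = 0.00262), with a 95% interval of 0.64 to 1.71, and ranked 25 from the top of all genes. Since the sham level is close to the median of all probe sets, this fold too is read as a lower bound and the rank as a description. The increase in PDX tibialis anterior still left its mean, 5.49 ± 0.86 (SD, n = 17), far below the 10.52 ± 0.22 of sham diaphragm (SD, n = 12).

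The measured difference of Sln ran from 0.25 to 1.84 between cohorts, a spread that the test of cohort differences did not call. In cohort 1 the PDX arrays were at 5.41, 6.60 and 4.27, against 3.29, 3.48 and 3.98 on the sham arrays, a difference of 1.84. Cohort 3 had PDX values of 6.06, 5.90, 5.66, 6.52 and 5.96, against sham values of 4.84, 3.60 and 4.19, a difference of 1.81. Every PDX array lay above every sham array of its cohort in these 2 cohorts. The same held for Ryr1, and also for Pln in cohort 1 and Atp2a1 in cohort 3, which were not called in this muscle. The share of all genes separated in this way was not computed, so the separation is a description only. In cohort 2 the PDX values were 7.42, 4.52, 5.002, 4.50 and 5.28, against 4.44, 4.15 and 5.07 in sham, a difference of 0.79 in which 1 array stood high. Cohort 4 had PDX values of 5.47, 5.42, 4.45 and 4.94, against 4.03, 5.59 and 4.85 in sham, and a difference of 0.25 with full overlap. Within single cohorts Sln passed in cohort 3 alone (adjusted p = 0.0233), where 2.46%, 0%, 7.96% and 0.302% of all genes passed in cohorts 1 to 4. The test of differences between the 4 cohorts gave an adjusted p of 0.761 for Sln. Without cohort 3 the change over the remaining cohorts was 0.96 (adjusted p = 0.0728), and without the high array of cohort 2 it was 1.04 (adjusted p = 0.000905).

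Casq1 had a lowest, median and highest level of 9.20, 10.66 and 11.23 in PDX tibialis anterior, against 10.96, 11.14 and 11.39 in sham tibialis anterior. Many PDX arrays lay below the narrow sham range. The difference of -0.45 (SE 0.12, 0.731-fold, adjusted p = 0.0145) had the same sign in all 4 cohorts, was -0.76 in cohort 3 (adjusted p = 0.0472), and lost the call without cohort 1 or cohort 4 (adjusted p = 0.0721 and 0.0595). Ryr1 had a lowest, median and highest level of 10.63, 11.11 and 11.20 in PDX tibialis anterior, against 10.38, 11.01 and 11.10 in sham tibialis anterior, and a difference of 0.14 (SE 0.04, 1.10-fold, adjusted p = 0.0164). The change was small and also had 1 sign in the 4 cohorts, from 0.09 to 0.27, but passed neither without cohort 1 (0.10, adjusted p = 0.283), nor without cohort 2 or 4 (adjusted p = 0.0529 and 0.0504), nor with the cohort as the replicate (adjusted p = 0.320).

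The other 6 genes did not pass in the tibialis anterior. The pump genes differed by 0.10 (Atp2a1, adjusted p = 0.121) and -0.18 (Atp2a2, adjusted p = 0.187). Atp2a1 passed with a filter on dim genes (adjusted p = 0.0446) and with a robust, intensity-trended prior (adjusted p = 0.0164) at the same difference, while after a second quantile normalization the difference was 0.0105 (adjusted p = 0.916). Pln differed by 0.16 (adjusted p = 0.493), Casq2 by 0.02 (adjusted p = 0.964), Pvalb by -0.20 (adjusted p = 0.104) and Cacna1s by -0.11 (adjusted p = 0.251). For Pln the 95% interval ran from -0.09 to 0.40 and for Casq2 from -0.30 to 0.34, so the data leave room for changes of that size.

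Fibre and nerve markers were measured beside these genes in the tibialis anterior. Of 10 fast fibre markers 2 rose, 1 fell and 7 did not pass. Of 8 slow fibre markers 0 rose, 1 fell and 7 did not pass. Myh2, the myosin of oxidative fast fibres, averaged 8.45 with PDX and 9.94 in sham and fell by 1.49 (adjusted p = 2.84e-06). The fast markers that rose were Myh4, by 0.13 (adjusted p = 0.0380), and Actn3, by 0.17 (adjusted p = 0.0160). The slow marker that fell was Myoz2, at -0.55 (adjusted p = 0.0343). Of 10 genes induced by denervation or placed at the neuromuscular junction, Chrna1, an acetylcholine receptor subunit, rose by 0.60 and Gadd45a, a stress-induced gene, by 1.09 (adjusted p = 0.000227 and 0.00116), and the other 8 did not pass. With the slow fibre mean and Myh2 as covariates, a setting chosen after seeing the data, Sln differed by 0.53 (adjusted p = 0.851), 0 of the 9 genes passed and 9 of all 23185 genes passed. Tendon markers fell in the same arrays, 4 of 5, with Tnmd, a tendon membrane protein, at 3.61 with PDX and 5.18 in sham (adjusted p = 1.98e-08), and the tendon mean ran from 3.37 to 4.97 with PDX and from 4.38 to 6.28 in sham. The hepatocyte mean was above 6 on 1 PDX array, and with that mean as a covariate Sln differed by 1.04 (adjusted p = 0.00692). The part of fibre type, innervation and tendon in the Sln, Casq1 and Ryr1 results was not tested further.

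**Figure D2:**
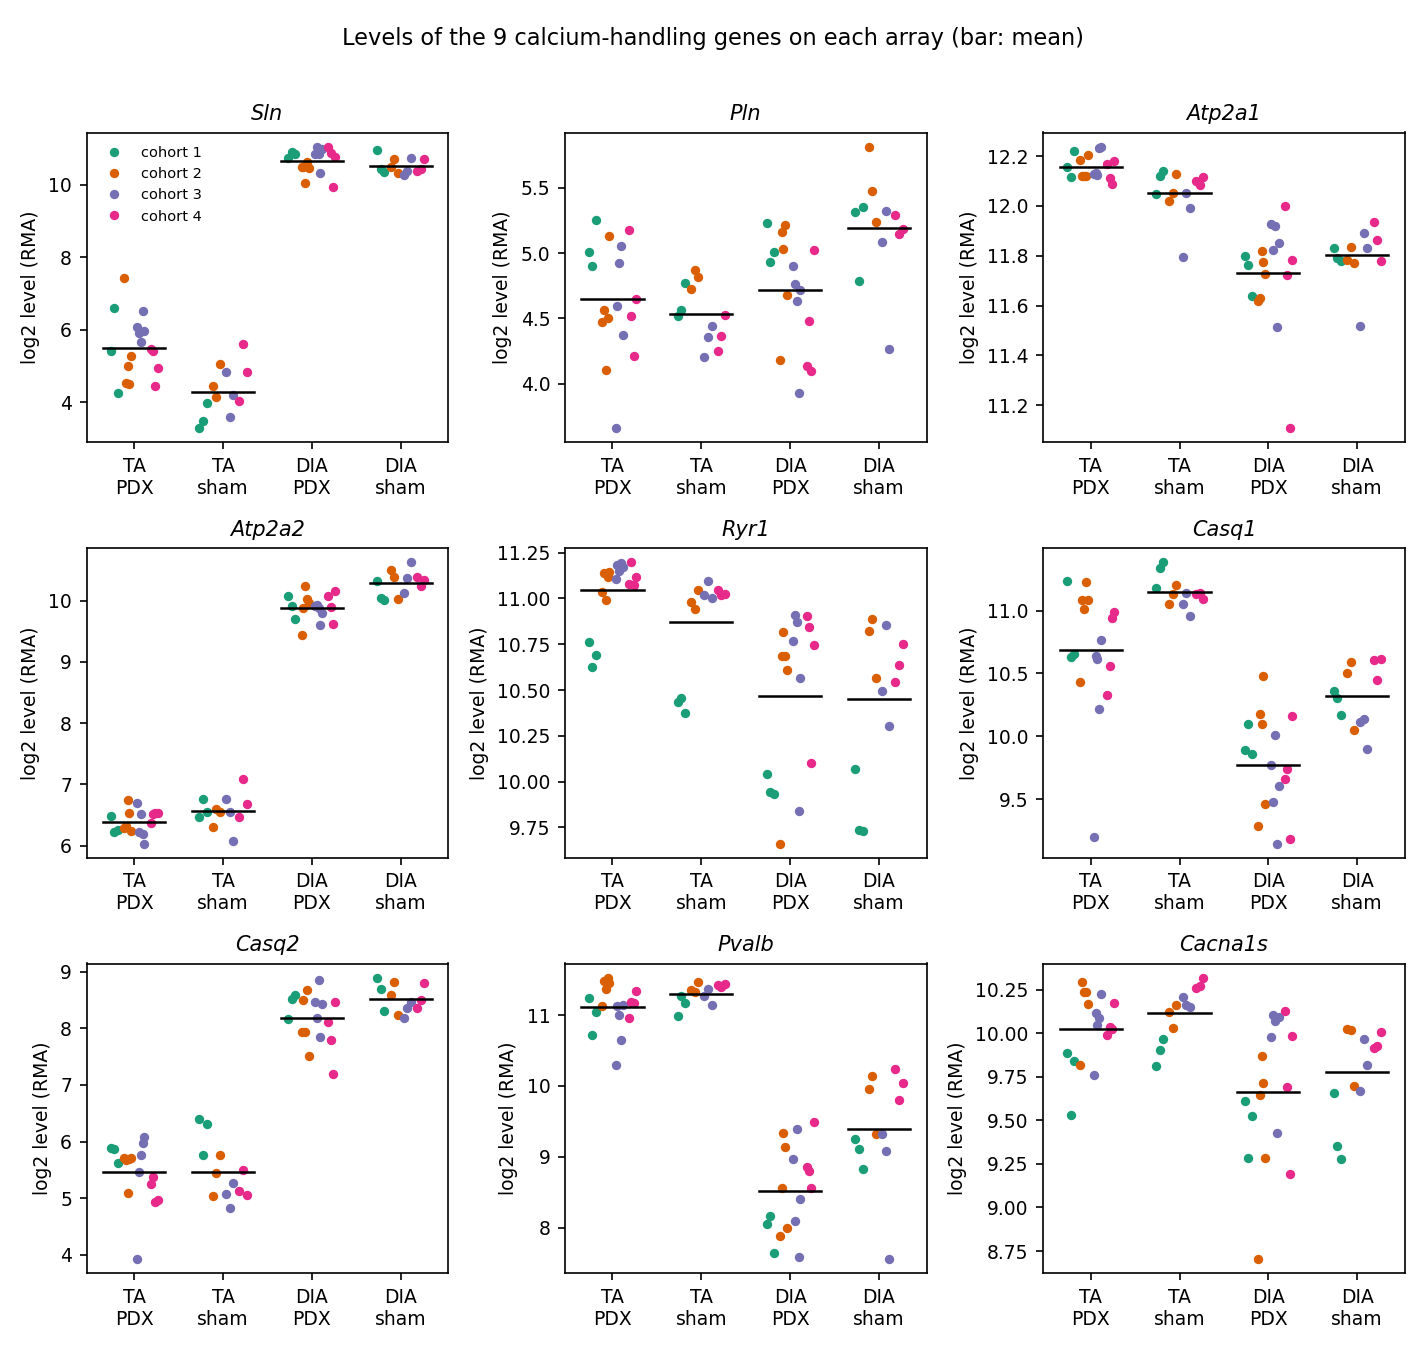
Log2 level of each of the 9 genes (panels, each with its own y axis) on every array, for PDX and sham tibialis anterior (TA) and PDX and sham diaphragm (DIA), coloured by cohort, with a bar at the mean. Sln, Atp2a2 and Casq2 form separate bands by muscle, Sln in PDX tibialis anterior reaches 7.42, Pvalb in PDX diaphragm spreads from 7.59 to 9.49, and Ryr1 of cohort 1 sits low.

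In the diaphragm, where Sln was already high, Pvalb, Casq1, Pln and Atp2a2 fell with PDX and no member rose. These 4 of 9 genes compare with 12.5% of all genes that passed, 5.89% higher and 6.58% lower. The median change was -0.32 for the 9 genes and 0.00 for all genes at this rounding. Pvalb had a lowest, median and highest level of 7.59, 8.56 and 9.49 in PDX diaphragm, against 7.56, 9.33 and 10.23 in sham diaphragm. The lowest sham array reached as low as any PDX array, and the groups overlapped. The difference of -0.90 (SE 0.20, 0.535-fold, adjusted p = 0.00352) ranked 53 from the bottom of all genes. It was -1.12, -1.22, -0.16 and -1.10 in cohorts 1 to 4.

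Casq1 had a lowest, median and highest level of 9.15, 9.77 and 10.48 in PDX diaphragm, against 9.90, 10.33 and 10.61 in sham diaphragm, with most PDX arrays below the sham median. It fell by 0.53 (SE 0.12, 0.691-fold, adjusted p = 0.00314), with the same sign in all 4 cohorts, and did not pass without cohort 4 (-0.42, adjusted p = 0.0535). Atp2a2, the slow fibre pump, had a lowest, median and highest level of 9.43, 9.91 and 10.24 in PDX diaphragm, against 10.01, 10.32 and 10.63 in sham diaphragm. Its difference of -0.39 (SE 0.08, 0.763-fold, adjusted p = 0.00214) was -0.23, -0.40, -0.55 and -0.38 in cohorts 1 to 4. Of the 4 called genes its cohort values were spread over the least. Pln had a lowest, median and highest level of 3.93, 4.77 and 5.23 in PDX diaphragm, against 4.27, 5.27 and 5.82 in sham diaphragm, and fell by 0.46 (SE 0.13, 0.729-fold, adjusted p = 0.0249). The Pln call was lost without sham replicate 3 of cohort 1 (-0.43, adjusted p = 0.0505), sham replicate 1 of cohort 2 (-0.42, adjusted p = 0.0556) or sham replicate 2 of cohort 3 (-0.40, adjusted p = 0.0565), without cohort 2 or 4 (adjusted p = 0.146 and 0.192) and with the cohort as the replicate (adjusted p = 0.0943).

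Sln had a lowest, median and highest level of 9.95, 10.76 and 11.06 in PDX diaphragm, against 10.27, 10.45 and 10.97 in sham diaphragm. The difference of 0.17 did not pass (adjusted p = 0.387), with a 95% interval of -0.05 to 0.38. Casq2 differed by -0.32 (adjusted p = 0.129), Cacna1s by -0.13 (adjusted p = 0.575), Atp2a1 by -0.07 (adjusted p = 0.612) and Ryr1 by -0.02 (adjusted p = 0.947). No member passed within a single diaphragm cohort (0 of 36 pairs of gene and cohort in limma), where 0.0345%, 2.69%, 1.06% and 0.384% of all genes passed in cohorts 1 to 4. The tests of differences between cohorts passed for 0 of 9 genes in each muscle, also at an unadjusted p under 0.05, against 0.0129% of all genes in the tibialis anterior and 0.00431% in the diaphragm (7.33% and 7.44% at an unadjusted p under 0.05).

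Liver signal moved with several diaphragm values. Levels of 5 of the 9 genes fell with the hepatocyte mean across diaphragm arrays, by 0.06 for Atp2a2, 0.06 for Sln, 0.07 for Ryr1, 0.06 for Cacna1s and 0.04 for Atp2a1 per log2 unit (adjusted p = 0.00101, 0.0182, 0.0223, 0.0191 and 0.0131). Of all genes, 14.8% had such a slope past the threshold, 8.48% lower and 6.28% higher. With that mean as a covariate the same 4 calls were made, and Pvalb differed by -0.90 and Atp2a2 by -0.39. Another setting left out the 6 PDX and 5 sham diaphragm arrays with a hepatocyte mean more than 1 above the median diaphragm array. Atp2a2 then differed by -0.45, Casq1 by -0.42, Pln by -0.31 and Pvalb by -0.53. Cohort 1 kept PDX replicate 2 and sham replicate 1 alone, and cohort 3 kept sham replicate 3 as its only sham array. That array had the lowest Pvalb level of all diaphragm arrays (7.56), and cohorts were weighted equally. Leaving out all diaphragm arrays above 6 removes cohort 1 from the comparison and again leaves cohort 3 with sham replicate 3 alone. This gave -0.49 for Atp2a2, -0.49 for Casq1, -0.37 for Pln and -0.35 for Pvalb. Neither setting can separate the liver signal from the loss of arrays. The sizes alone do not show that the 4 calls hold without liver-rich arrays. All 9 differences between the sham muscles passed in both settings, with Sln at 6.42 and 6.40.

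Of the fibre markers in the diaphragm, 0 of 8 slow and 0 of 10 fast genes passed in limma, the lowest adjusted p being 0.0573 for Myl3, a slow myosin light chain. Of 5 mesothelial markers Msln rose by 0.90 (adjusted p = 9.35e-05), and the other 4 did not pass, with Upk3b at -0.09. Among the 10 denervation and junction genes, Runx1 rose by 0.94 and Gadd45a by 0.54 (adjusted p = 2.21e-05 and 0.0357). The other 8 did not pass, with Chrna1 at 0.44 (adjusted p = 0.0697). The PDX effect was called different between the muscles for 0 of these 10 genes. Myh4 differed by -1.12 (adjusted p = 0.0905), with means of 8.88 in PDX and 10.01 in sham diaphragm. With Myh4 as a covariate, also chosen after seeing the data, Atp2a2 differed by -0.31 (adjusted p = 0.0302), Casq1 by -0.31 (adjusted p = 0.0444) and Pvalb by -0.44 (adjusted p = 0.0212), and Pln no longer passed (-0.23, adjusted p = 0.296). The part of fibre type, innervation and mesothelium in these values was not tested further.

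**Figure D3:**
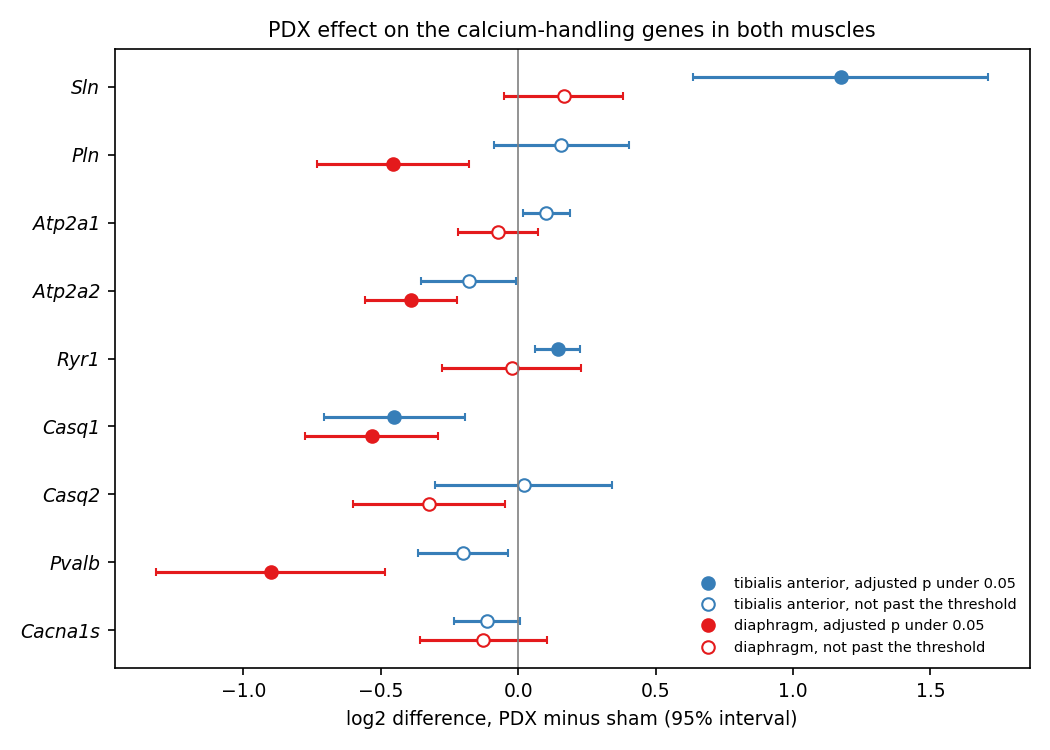
Log2 difference between PDX and sham (x axis) for the 9 genes (rows) in the tibialis anterior and the diaphragm, with bars for the 95% interval and filled points for an adjusted p under 0.05. Sln stands alone to the right in the tibialis anterior at 1.17, Pvalb reaches -0.90 in the diaphragm, and Casq1 lies left of 0 in both muscles.

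The PDX effect differed between the muscles for Sln, Pln and Pvalb. In the test of the diaphragm effect minus the tibialis anterior effect, 3 of 9 genes passed, all lower in the diaphragm, where 6.33% of all genes passed, 3.66% higher and 2.67% lower. Sln differed by -1.01 (SE 0.30, adjusted p = 0.0304), with effects of 0.17 in diaphragm and 1.17 in tibialis anterior. Pln differed by -0.61 (SE 0.19, adjusted p = 0.0352), with effects of -0.46 in diaphragm and 0.16 in tibialis anterior. Pvalb differed by -0.70 (SE 0.22, adjusted p = 0.0458), with effects of -0.90 in diaphragm and -0.20 in tibialis anterior. These values rest on single arrays to a degree: the Sln call was lost without tibialis anterior PDX replicate 2 of cohort 1 (-0.86, adjusted p = 0.0639) or sham replicate 2 of cohort 2 (-0.96, adjusted p = 0.0524), replicate 2 of cohort 3 (-0.93, adjusted p = 0.0573) or replicate 1 of cohort 4 (-0.91, adjusted p = 0.0587), the Pln call without 10 of 58 single arrays and the Pvalb call without 42 of 58, at adjusted p up to 0.0650 and 0.0825. Sln also did not pass without cohort 1 (-0.81, adjusted p = 0.215) or cohort 3 (-0.86, adjusted p = 0.202). Without the liver-rich diaphragm arrays Sln stood at -1.10, Pln at -0.46 and Pvalb at -0.33. In that setting the sham diaphragm of cohort 3 is replicate 3 alone, so liver signal and loss of arrays cannot be separated. For Casq1, which fell in both muscles, the difference was -0.08 with a 95% interval of -0.44 to 0.27 (adjusted p = 0.882). Atp2a2 differed by -0.21 (adjusted p = 0.352), so its fall in the diaphragm was not shown to differ from the -0.18 in the tibialis anterior.

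**Figure D4:**
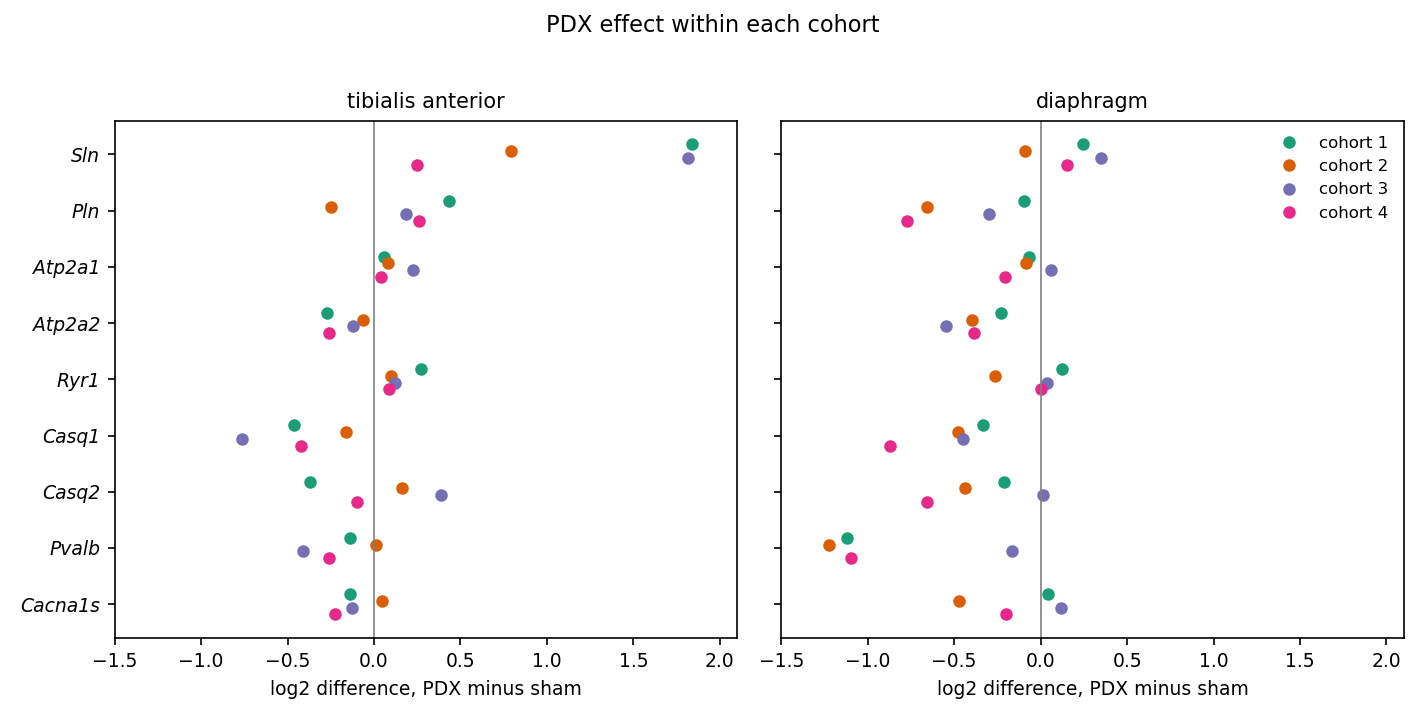
Log2 difference between PDX and sham within each of the 4 cohorts (points by colour) for the 9 genes (rows), in the tibialis anterior (left) and the diaphragm (right). Sln in the tibialis anterior spreads from 0.25 to 1.84, and Pvalb in the diaphragm lies between -1.22 and -1.10 in cohorts 1, 2 and 4 and at -0.16 in cohort 3.

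Ryr1 also lay low in cohort 1 in 3 of the 4 sets of arrays. In the tibialis anterior its level in cohort 1 was 10.63 to 10.76 with PDX and 10.38 to 10.46 in sham, against at least 10.99 on PDX arrays and 10.94 on sham arrays of the other cohorts. In the diaphragm the cohort 1 sham arrays were at 9.73 to 10.07, against 10.31 to 10.89 on the sham arrays of the other cohorts. In PDX diaphragm cohort 1 lay at 9.93 to 10.04 and did not stand apart, since the lowest arrays of cohorts 2, 3 and 4 were at 9.66, 9.84 and 10.10. The PDX difference is taken within cohort and leaves this shift out. Whether cohort 1 was processed apart is not given in the sources used here, and the shift itself was not tested.

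A wider list of 69 calcium genes, of which 61 were measured, was set beside the 9 genes. In the tibialis anterior 3 rose and 11 fell with PDX, and in the diaphragm 3 rose and 12 fell, with median changes of -0.06 and -0.09. The medians of all genes were -0.01 and 0.00 at this rounding, and 12.8% and 12.5% of all genes passed. Called in both muscles were 7 genes of the list, of its 14 calls in the tibialis anterior and its 15 calls (46.7%) in the diaphragm. Over all genes 957 were called in both, which is 32.1% of the calls in the tibialis anterior and 33.1% of those in the diaphragm, and the difference between list and all genes was not tested. Among the genes called in both were parts of the triad, the junction between tubule and store. Stac3, which links the voltage sensor to Ryr1, fell by 0.51 in tibialis anterior and by 0.56 in diaphragm (adjusted p = 0.00289 and 0.000965). Jph2, a junctophilin that ties the 2 membranes together, fell by 0.42 and 0.60 (adjusted p = 0.00539 and 0.00385), and Sypl2, a triad membrane protein, by 0.71 and 0.38 (adjusted p = 0.000197 and 0.00657). Stim1, the calcium sensor of the store, fell by 0.33 in each muscle (adjusted p = 0.00697 and 0.00957).

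The genes that rose in both muscles were Tmem38b, a cation channel of the store membrane, by 0.58 in tibialis anterior and 0.48 in diaphragm (adjusted p = 0.000973 and 0.00409), and Cacng1, a subunit of the voltage sensor, by 0.31 and 0.55 (adjusted p = 0.00908 and 0.0135). Atp2a3, a further calcium pump, passed in the tibialis anterior at 0.23 (adjusted p = 0.0431), a call lost without any 1 of 20 of the 29 arrays (adjusted p up to 0.0848) and in 6 of 13 other settings, and its effect was not shown to differ in the diaphragm (-0.09, adjusted p = 0.8287). Calm2, a calmodulin gene, passed in the tibialis anterior at -0.35 (adjusted p = 0.00133). In the test of the muscle difference 2 of the 61 genes of the list passed, where 6.33% of all genes passed. Calm2 was 1 of the 2 (0.34, adjusted p = 0.0166). The other was Mrln, myoregulin, an inhibitor of the pumps in fast fibres related in function to Sln and Pln. Mrln averaged 5.50 in PDX diaphragm and 6.26 in sham diaphragm and fell by 0.76 (SE 0.11, adjusted p = 5.18e-05), against a difference of 0.06 in the tibialis anterior (adjusted p = 0.833). The difference between the muscles was -0.82 (adjusted p = 0.000815). Without the liver-rich diaphragm arrays Mrln stayed at -0.74 (adjusted p = 0.00914) and, without all arrays above 6, at -0.75 (adjusted p = 0.0225), where its difference between the muscles no longer passed (-0.72, adjusted p = 0.105). Speg, a kinase of the triad, fell by 0.39 in the diaphragm (adjusted p = 0.0328), a call lost in 9 of 15 other settings (adjusted p up to 0.327) and without any 1 of 7 of the 29 arrays. Fkbp1b, which binds release channels, passed at 0.33 from levels of 2.49 and 2.16 in PDX and sham diaphragm, below the median of all probe sets. Of the other diaphragm calls named, Cacng1 lost its call in 5 of 15 other settings, Sypl2 in 6 of 15, Jph2 in 3 of 15, Tmem38b in 1 of 15 and Fkbp1b in 6 of 14, while Mrln and Stac3 lost theirs in 0 of 15.

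**Figure D5:**
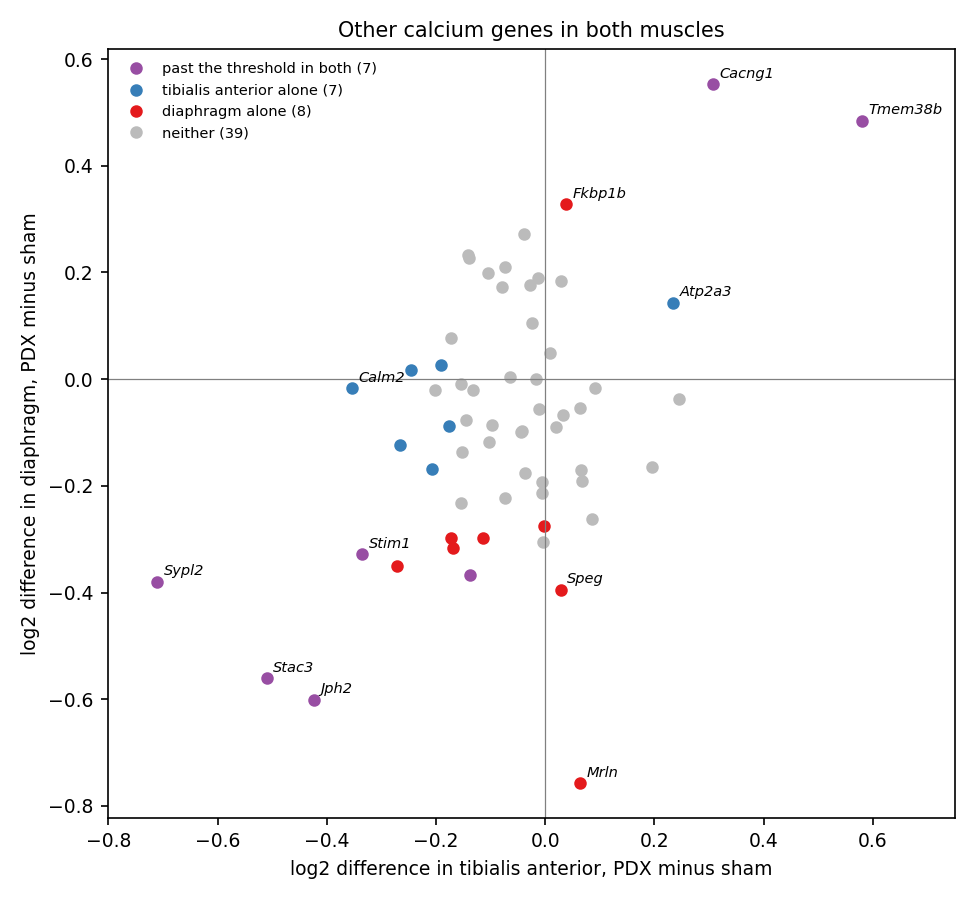
Log2 difference between PDX and sham in the tibialis anterior (x axis) and in the diaphragm (y axis) for the 61 other calcium genes, coloured by the muscle in which the adjusted p was under 0.05. Stac3, Jph2 and Sypl2 lie low in both muscles, Tmem38b and Cacng1 high in both, and Mrln lies at -0.76 in the diaphragm and 0.06 in the tibialis anterior.

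Between the sham muscles 46 of the 61 genes passed, 10 higher and 36 lower in the diaphragm, with a median of -0.42, where 39.7% of all genes passed, 15.2% higher and 24.5% lower, with a median of -0.09. The largest decreases among them were Cacng1 (-1.87), Micu3, a regulator of the mitochondrial calcium channel (-1.71), Atp2b3, a calcium pump of the cell surface (-1.63), Jph2 (-1.38) and Camk2g, a calmodulin-dependent kinase (-1.31), with adjusted p at most 6.18e-12. The largest increases were smaller: Ryr3, a release channel, at 0.65 (from levels under the median of all probe sets), Calr, the calcium-binding chaperone calreticulin, at 0.62, Itpr2, an inositol trisphosphate receptor, at 0.57, Slc8b1, the mitochondrial sodium-calcium exchanger, at 0.52 and S100a1, a calcium sensor of muscle, at 0.47 (adjusted p at most 0.00135).

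Genes whose levels followed Sln, Atp2a2 and Pvalb were named by correlation over arrays, as a description. Over the 34 PDX arrays, taking each array's deviation from the sham mean of its muscle and cohort, Sln ran most closely with Cwc15 (r = 0.82), Ino80dos (0.81), Tfdp2 (0.79), Idh2 (0.78) and Oga (0.77). Tfdp2, a partner of E2F factors, rose by 1.09 in the tibialis anterior (adjusted p = 1.16e-06). Atp2a2 ran with Neurl1a (0.79), Dst (0.76), Ppp1r37 (0.72), Fbxw11 (0.72) and Ybx2 (0.71). For Dst and Fbxw11 this came from the diaphragm, with r of 0.90 and 0.84 there and of 0.14 and 0.22 within the tibialis anterior. Within the tibialis anterior r was 0.67 to 0.78 for the 5 genes named for Sln, and within the diaphragm 0.45 to 0.80. Pvalb ran with Mlf1 (0.89), Actn3, an actinin of fast fibres (0.88 over both muscles, 0.34 within the tibialis anterior and 0.89 within the diaphragm), Tarsl2 (0.85), Gpcpd1 (0.84, with 0.29 within the tibialis anterior and 0.87 within the diaphragm) and Cacna2d1 (0.84). Over the 16 group means, which are set mainly by the muscle, Sln followed Nnt (0.99), Lpl (0.99) and Tpm3 (0.99), and Atp2a2 followed the slow fibre genes Tnnt1, Myl2 and Tnnc1 (0.998, 0.996 and 0.995). Pvalb followed Cul5 (0.99), Tarsl2 (0.98) and Ube2d1 (0.98). The points share muscle, cohort and, in the diaphragm, the liver signal.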

How the data were processed

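Total RNA was labelled with biotin for Affymetrix arrays, per the labels. The authors' deposited log2 values cover 25206 probe sets and 58 arrays and were made by RMA (affy 1.36.1, R 2.15.1, per the submitters' processing notes). Neither the genome build nor the joint or separate normalization of cohorts is stated there. The table had 0 columns of other series. A symbol was paired with 23185 probe sets through the platform annotation, with 0 symbols updated from the gene table, and 2021 had none.

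All named genes were fitted with limma 3.58.1 (R 4.3.3, statmod 1.5.0), with no filter on dim genes. Within a muscle every cohort and treatment had its own mean, and the 4 cohort differences were averaged into the PDX effect. The muscle difference and the sham contrast came from 1 fit of 16 group means on 58 arrays. Tests were two-sided, with Benjamini-Hochberg adjustment over 23185 genes, and moderated F tests compared cohorts. Precision is limited by the number of arrays. Levels of different probe sets were not compared. The PDX effect in each muscle, the muscle difference and the sham contrast were tested on simulated data. The F tests and the other steps and settings were not. Named were all 9 members, the 5 highest and 5 lowest called genes of the calcium list per comparison (3 and 3 for the muscle difference), and, for Sln, Atp2a2 and Pvalb, the 5 most alike genes over PDX arrays and the 3 most alike over group means, leaving out predicted genes and olfactory and vomeronasal receptors. Members and lists were chosen with earlier results of these data known. The hepatocyte, fibre and Myh4 covariates and the hepatocyte threshold of 6 were added after seeing the data.

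Equally numbered arrays were checked as pairs: deviations of 29 diaphragm and tibialis anterior pairs correlated between -0.22 and 0.22 and those of 24 PDX and sham pairs between -0.59 and 0.65. These values cannot settle whether equally numbered arrays of both muscles came from the same mouse. The labels do not state it, so the numbers were not taken as pairs.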

Additional observations from a re-analysis of the deposited data

Results flagged for a closer look

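Over 54 groups of 4 or 5 arrays of one gene, 11 held an array that stood apart from the others by Dixon's criterion, where chance gives about 1 in 20. The genes share the same arrays, so these groups are not independent. Some arrays were flagged for several genes. In the tibialis anterior, PDX replicate 1 of cohort 2 was high for Sln (7.42) and low for Casq1 (10.43) and Cacna1s (9.82). PDX replicate 3 of cohort 2 (5.10) and PDX replicate 1 of cohort 3 (3.93) were low for Casq2, and PDX replicate 1 of cohort 4 was low for Atp2a2 (6.36). In the diaphragm, PDX replicate 4 of cohort 3, the array with the highest hepatocyte mean (11.10), was low for Pln (3.93), Atp2a1 (11.51) and Cacna1s (9.43). PDX replicate 1 of cohort 2, with a hepatocyte mean of 10.38, was low for Ryr1 (9.66). PDX replicate 3 of cohort 2, with a hepatocyte mean of 4.41, was low for Sln (10.07).

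The PDX effect differed between the muscles for 3 genes, as diaphragm minus tibialis anterior: Sln by -1.01, Pln by -0.61 and Pvalb by -0.70.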

How the results depend on the processing

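Calls among the 9 genes were 3 in the tibialis anterior, 4 in the diaphragm, 3 for the muscle difference and 9 for the sham muscles. In the tibialis anterior 1 call was left without cohort 1 or 4 and 0 with the fibre covariates, in the diaphragm 2 without cohort 4 and 1 without the liver-rich arrays at either threshold, and for the muscle difference 0 without cohort 1, 1 without cohort 2 or 4 and 0 at either liver threshold. Without any single array the count for the muscle difference lay between 0 and 3. It was 0 without tibialis anterior sham replicate 1 of cohort 4 and 1 without each of 8 other arrays. With the replicate block, which ties equally numbered PDX and sham arrays of a cohort (for the muscle comparisons, equally numbered arrays of both muscles, with a consensus correlation of 0.0101), 2 members were called in the tibialis anterior and 3 in the diaphragm, and Ryr1 (0.13, adjusted p = 0.185) and Pln (-0.48, adjusted p = 0.0567) lost their calls. The block left every other call of a member in place.

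Signs turned for genes without a call. Casq2 in the tibialis anterior was -0.0837 with the replicate block, -0.0266 without cohort 2, -0.10 without cohort 3 and between -0.0284 and 0.1153 without single arrays. Ryr1 in the diaphragm was 0.19 with Myh4, 0.0213 with array weights, 0.0065 with the replicate block, 0.0564 without cohort 2, 0.10 and 0.19 at the 2 liver thresholds and between -0.0547 and 0.0279 without single arrays. Cacna1s in the diaphragm was 0.0386 with Myh4. For the muscle difference, Cacna1s was 0.0346 with array weights, 0.0444 after a second quantile normalization, 0.15 without cohort 2, 0.0445 without the arrays above 6 and between -0.0461 and 0.0317 without single arrays. Casq1 was 0.0411 without cohort 4 and 0.0311 at the first liver threshold, and Ryr1 was 0.0867 at the second.

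Calls over all genes in the tibialis anterior were 2979, against 1426 without cohort 1, 1122 with the cohort as the replicate and 9 with fibre covariates. In the diaphragm they were 2892, against 1501 and 1699 without cohorts 1 and 2, 1018 with the cohort as the replicate, 1771 with Myh4, and 1438 and 654 at the liver thresholds. For the muscle difference they were 1468, against 2690 with array weights, 531 and 705 without cohorts 1 and 2 and 515 at the second liver threshold, and for the sham muscles 9210, against 5656 and 5556 at the liver thresholds. Cohort differences gave 3 genes in the tibialis anterior (30 with array weights, 1 after a second quantile normalization, 0 to 6 without single arrays) and 1 in the diaphragm (3 with array weights, 15 at the first liver threshold, 1 to 7 without single arrays). On the calcium list, the 14 calls in the tibialis anterior became 6, 9 and 8 without cohorts 1, 2 and 4, 4 with the cohort as the replicate, 8 with the block, 0 with fibre covariates and 8 to 18 without single arrays. The 15 calls in the diaphragm became 8 and 9 without cohorts 1 and 2, 4 with the cohort as the replicate, 7 with Myh4, and 6 and 4 at the liver thresholds. The 2 calls of the muscle difference became 11 with array weights, 1 without cohort 1 or 2, 4 with the hepatocyte covariate or the first liver threshold, 0 at the second and 2 to 5 without single arrays. The cause of these moves was not tested, apart from the smaller number of arrays or genes that some settings leave.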
